A study of Mus musculus with 42 samples.

Results

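Hspb1, Hspb8, Cryab and Bag3 are 4 genes of the protein quality control system, and they were chosen by name, with earlier results of these data known. In the RNA-seq data they were found by gene symbol. In the 3′READS data their reads were those at polyadenylation sites (PASs) inside the gene on its own strand or up to 4000 nt downstream, short of the next gene. They are 4 of the 14454 genes with a PAS in these data and hold 15 of the 99725 PAS positions. The 42 mouse libraries came from NIH3T3 cells, an embryonic fibroblast line, and from C2C12 cells, a muscle line studied as dividing myoblasts (MB) and as differentiated myotubes (MT), and all of them carry the strain label C57BL/6. Stressed cells received 250 µM sodium arsenite for 1 h and were taken at once (AS) or after 4, 8, 12 or 24 h in normal medium (RC4, RC8, RC12 and RC24), whereas non-treated cells (NT) stayed in normal medium. For NIH3T3 cells there were 10 libraries of total RNA, 8 of 4sU-labelled and flow-through (Ft) RNA from cells given 50 µM 4-thiouridine for the last 1 h, 8 of cytoplasmic input and TIA1-immunoprecipitated RNA (NT and AS), and 4 RNA-seq libraries. For C2C12 cells there were 8 libraries of cytoplasmic RNA and 4 of untreated total RNA. Only NT and AS total RNA (3 libraries each) and the input, TIA1, MB total and MT total groups (2 libraries each) had replicates.

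Small heat shock proteins are ATP-independent chaperones that share an alpha-crystallin domain, assemble into oligomers and hold unfolding proteins in a soluble state. Hspb1 (HSP25 in mouse) and Cryab (αB-crystallin) are abundant in muscle and lens and respond to heat and oxidants. Hspb8 binds Bag3, a co-chaperone that also binds HSP70, and this complex passes damaged proteins such as filamin to autophagy in muscle. The genes are classical targets of heat shock factor 1 (HSF1), which binds inverted repeats of the unit GAA in DNA.

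Each gene used essentially 1 PAS, and the 30 bases that end there are shown because every 3′READS value below counts reads at these sites. The capitals mark the poly(A) signal AATAAA.
Hspb1, chr5:136365403-136365432, plus strand: aAATAAAagttgcaagctactgctcaccac
Hspb8, chr5:116858503-116858532, minus strand: atgatgatAATAAAggagctgatgttctta
Cryab, chr9:50564712-50564741, plus strand: aagctAATAAAaatatcattcagcaacaaa
Bag3, chr7:135690466-135690495, plus strand: gaaAATAAAgtgattatataactctcaaaa
Coordinates are those of mm9. The signal ended 23 nt (Hspb1), 16 nt (Hspb8), 19 nt (Cryab) and 21 nt (Bag3) before the site. Each window occurred 1 time in the genome, so no exact copy elsewhere could share these 30 bases. The sites lay in the last exon or within 4 nt past its annotated end. They held 99.95% of the 10979 Hspb1 reads, 99.32% of the 36619 Hspb8 reads, 99.04% of the 40603 Cryab reads and 99.96% of the 24924 Bag3 reads over the 38 3′READS libraries.

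Cryab had a second site 57 nt further downstream with 0.88% of its reads, listed in 17 libraries, and it too followed AATAAA.
Cryab, second site, chr9:50564769-50564798, plus strand: tgttttaAATAAAtctgcaaatgtaacaga
The share of the main site, with PAS positions within 24 nt joined, was never below 98.0% for Cryab, 96.3% for Hspb8 or 99.8% for Bag3 in any library. With the study's rule for a change between 2 PAS isoforms of the last exon in total RNA, 74 of 2880 genes moved to the proximal site after AS and 22 to the distal site in both of the first 2 replicate pairs. None of the 4 genes could enter this test. The second sites of Hspb8, Cryab and Bag3 had too few reads in at least 1 of these pairs, and Hspb1 was unlisted in these libraries. Hspb8 had enough reads in pair 2, where its proximal site held 0.383% of the NT and 0.559% of the AS reads of the pair of sites. This difference of 0.176 percentage points did not meet the rule (Fisher's exact test, two-sided p = 0.383). It also had enough reads in pair 4, outside this test, where the proximal site held 3.04% of the NT and 3.69% of the AS reads (Fisher's exact test, two-sided p = 0.816).

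The promoter windows of Hspb1, Hspb8 and Bag3 in RefSeq (GRCm38.p6, 250 bases before to 50 after the start) are shown where they hold a pair of heat shock units, GAANNTTC or TTCNNGAA. Both forms read the same on the opposite strand, and capitals mark the units.
Hspb1, 117 to 110 bases before the start: ttcaacaagaGAAgtTTCcagatggggg
Hspb1, 97 to 90 bases before the start: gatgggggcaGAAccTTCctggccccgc
Hspb8, from 2 to 9 bases after the start: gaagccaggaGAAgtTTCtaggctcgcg
Bag3, from 42 to 49 bases after the start: gatgggaccaGAAgtTTC
The 3 promoters with an entry all held such a pair, as did 15.1% of all 32851 promoter entries and 9 of the 16 entries of the 14 HSF1-driven chaperone genes described below. The form with 3 units, GAANNTTCNNGAA or its reverse TTCNNGAANNTTC, was in 0 of these 3 promoters, in 0.603% of all entries and in 5 of the 16 chaperone entries. A match is a description of the sequence and not a binding site. Cryab was not analysed here for promoter motifs.

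The 3′READS libraries held 1048335 to 6974664 PAS reads each, and the RNA-seq libraries 17137579 to 25194062 reads. Levels are given as normalized RPM (nRPM), that is, RPM corrected by a median-ratio factor per library, and a gene with fewer than 5 reads in a library was not listed in its file. Since 3′READS gives 1 read per transcript end, its levels can be compared between genes without correcting for length, whereas RNA-seq levels are compared only within a gene. All 5 fibroblast markers were listed in each of the 26 NIH3T3 3′READS libraries, with a summed level of 1082 to 5236 nRPM. Both myoblast markers were listed in the MB and MT total RNA libraries. They summed to 24.7 to 28.2 nRPM in MB and to 50.6 to 52.0 nRPM in MT, and so were higher in MT. The 8 myotube markers summed to 64.0 to 67.1 nRPM in MB and to 22640 to 23480 nRPM in MT total RNA, and the 5 proliferation markers to 1182 to 1247 nRPM and 211 to 219 nRPM. The total RNA libraries of NIH3T3 cells differed by replicate number, which is given beside the results it touches.

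In total RNA of untreated NIH3T3 cells Hspb8 was the most abundant of the 4 genes. Hspb8 was at 250, 479 and 188 nRPM in NT replicates 1, 2 and 4 of total RNA (305 ± 153, SD, n = 3). Bag3 was at 125, 114 and 158 nRPM (132 ± 23.3). Cryab was at 54.4, 38.7 and 155 nRPM (82.6 ± 62.9). The lowest Hspb8 value lay above every Bag3 and Cryab value, whereas the Bag3 and Cryab values overlapped. Hspb1 was not listed in any of these libraries, which limits it to 0.667 to 2.54 nRPM (4 reads at 1 PAS). It was likewise unlisted in 24 of the 26 NIH3T3 3′READS libraries. In C2C12 cells, by contrast, Hspb1 was listed in 12 of 12 libraries, at 33.3 and 37.8 nRPM in MB and 42.4 and 45.2 nRPM in MT total RNA.

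After 1 h of AS, total RNA of NIH3T3 cells gave small increases that did not pass the test across genes. Bag3 was at 165, 296 and 192 nRPM in AS replicates 1, 2 and 4. Its log2 fold change was 0.72 ± 0.40 (SE, adjusted p = 1, edgeR quasi-likelihood test with Benjamini-Hochberg adjustment over 9539 genes). Cryab was at 142, 80.1 and 167 nRPM, overlapping with its NT values (log2 0.65 ± 0.62, adjusted p = 1). Hspb8 was at 323, 594 and 225 nRPM, also overlapping (log2 0.32 ± 0.55, adjusted p = 1). Hspb1 stayed unlisted in all 3 AS libraries.

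No gene was called in this comparison (0% of the genes tested, with 19 genes at an unadjusted p under 0.05; DESeq2 also called 0). With the replicate number as a block, because same-numbered NT and AS libraries deviated together, 11 genes were called, all of them higher (0.115% of those tested). Bag3 then had a log2 change of 0.71 ± 0.22 (adjusted p = 0.484), Cryab 0.85 ± 0.23 (adjusted p = 0.386) and Hspb8 0.32 ± 0.14 (adjusted p = 0.754), and none of them passed in edgeR. Within the pairs, the log2 change of Hspb8 was 0.37, 0.31 and 0.26 in replicates 1, 2 and 4. That of Cryab was 1.38, 1.05 and 0.11, and that of Bag3 0.40, 1.38 and 0.28. Hspb8 was the most even between pairs, and Cryab changed least in replicate 4, where its NT level was the highest. Without replicate 4 and with the block, Cryab passed in edgeR (log2 1.21, adjusted p = 0.00609), with 101 genes called in all. This fit was added after the data had been seen.

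**Figure D1:**
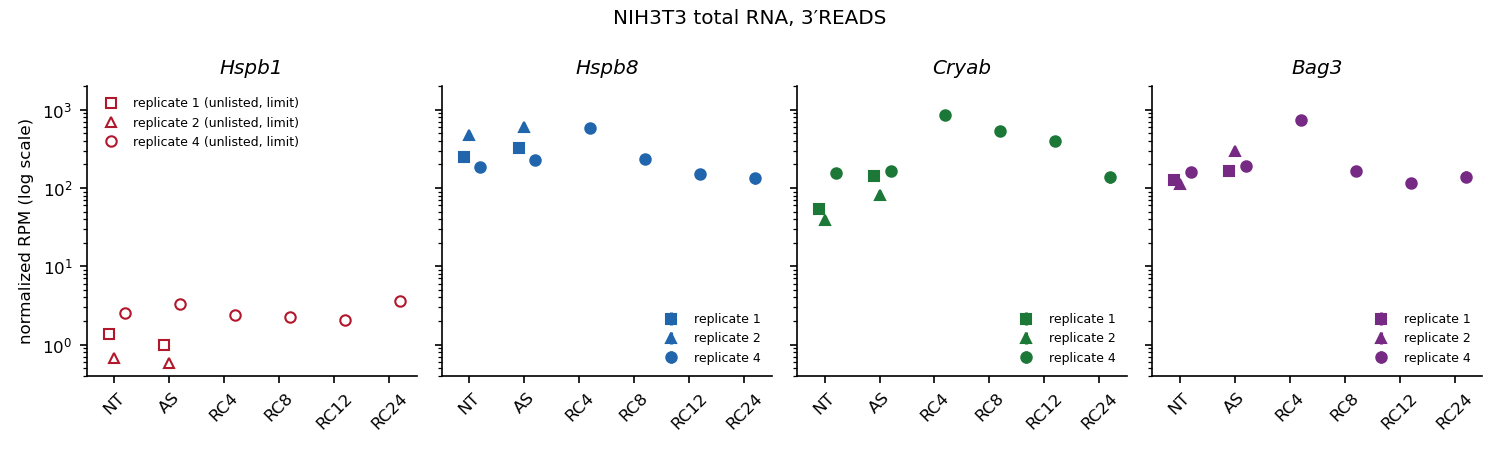
Normalized RPM (log scale) of each gene in NIH3T3 total RNA, with a symbol for each of replicates 1, 2 and 4, 95% counting intervals that are smaller than most symbols, and open symbols at the level of 4 reads where a gene was unlisted. Hspb8, Cryab and Bag3 peak at RC4 in the series of replicate 4, at 580, 860 and 734 nRPM, and Hspb1 is unlisted throughout.

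In the cytoplasmic input RNA no member passed the test either. Bag3 was at 47.6 and 72.7 nRPM in NT and at 116 and 132 nRPM in AS (log2 1.04 ± 0.38, adjusted p = 1, edgeR over 8422 genes). Cryab was at 35.7 and 26.6 nRPM in NT and at 49.5 and 45.8 nRPM in AS (log2 0.61 ± 0.38, adjusted p = 1). Hspb8 was at 191 and 312 nRPM in NT and at 276 and 306 nRPM in AS, and these values overlapped (log2 0.21 ± 0.39, adjusted p = 1). The background was 0% of genes called by edgeR, with 155 genes at an unadjusted p under 0.05 and 25 genes called by DESeq2, none of them a member.

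RNA newly made during AS, captured by 4sU labelling, showed larger differences than total RNA, though with 1 library per condition and hence no test. Bag3 rose from 101 nRPM in the NT to 312 nRPM in the AS library of the 4sU fraction (3.08-fold, 95% counting interval 2.68 to 3.55). Cryab went from 50.1 to 167 nRPM (3.33-fold, 2.74 to 4.07). Hspb8 went from 154 to 304 nRPM (1.97-fold, 1.74 to 2.22). Thus 2 of these 3 genes were at least 2-fold higher, as were 6.2% of all genes. Counting intervals cover counting error only and not the spread between cultures. The NT libraries taken 4 h apart differed by 0.67-fold for Hspb8 (104 against 154 nRPM), 1.32-fold for Cryab and 0.87-fold for Bag3 in this fraction.

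In the Ft fraction, which holds mostly older RNA, none of these 3 genes was 2-fold higher after AS (background 5.25%). Bag3 was 1.41-fold higher (1.22 to 1.63), Cryab 1.38-fold (1.19 to 1.60) and Hspb8 1.25-fold (1.11 to 1.42). Hspb1 was unlisted in the NT and AS libraries of both fractions.

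RNA-seq counts on coding sequences, again with 1 library per condition, put Bag3 at 80.3 nRPM in NT and 223 nRPM after AS (2.78-fold, 2.63 to 2.93). Hspb8 went from 24.9 to 46.3 nRPM (1.86-fold) and Cryab from 31.1 to 50.3 nRPM (1.62-fold). Hspb1 was unlisted in NT and had 37 reads after AS, at least 7.95-fold more than the 4 reads that could have gone unlisted. At least 2-fold higher were Bag3 and Hspb1, the latter tested only because of its AS reads, against 4.33% of all genes.

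At RC4 the members that were listed were at least 2-fold above their NT levels in every kind of NIH3T3 RNA. By RNA-seq, Hspb1 had 13821 reads (827 nRPM), against none listed in NT and 1.44 nRPM after AS, and it had the highest ratio of all 11164 genes compared. This ratio was at least 4105-fold, and Hspb1 entered this comparison and those of the 4sU and Ft fractions at RC4 only through its reads in the stressed library. Cryab went from 29.4 to 1092 nRPM (37.1-fold, 34.2 to 40.4), Bag3 from 53.2 to 1257 nRPM (23.6-fold, 22.2 to 25.2) and Hspb8 from 24.4 to 304 nRPM (12.5-fold, 11.3 to 13.7). The share of all genes at least 2-fold higher was 17.2%. With library totals alone in place of median-ratio factors, all log2 changes of this comparison were lower by 0.80, and Cryab, Bag3 and Hspb8 had 4.41, 3.76 and 2.84.

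In the 4sU fraction, Cryab rose from 65.9 to 1273 nRPM at RC4 (19.3-fold, 17.2 to 21.7). Hspb8 rose from 104 to 483 nRPM (4.65-fold, 4.21 to 5.14), and Bag3 from 88.0 to 358 nRPM (4.07-fold, 3.65 to 4.55). Hspb1, unlisted in NT, was at 26.1 nRPM (112 reads, at least 30.8-fold). The background of genes at least 2-fold higher was 14.3%. In the Ft fraction, Cryab rose from 143 to 2528 nRPM (17.6-fold, 16.1 to 19.3), Hspb8 from 118 to 1040 nRPM (8.85-fold, 8.00 to 9.80) and Bag3 from 98.8 to 763 nRPM (7.72-fold, 6.92 to 8.65). Hspb1 was at 79.0 nRPM there (215 reads, at least 74.6-fold), with a background of 14%.

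In total RNA at RC4 the changes were smaller. Cryab went from 155 nRPM in NT replicate 4 to 860 nRPM (5.56-fold, 4.85 to 6.39), Bag3 from 158 to 734 nRPM (4.63-fold, 4.04 to 5.32) and Hspb8 from 188 to 580 nRPM (3.09-fold, 2.71 to 3.54). All 3 were at least 2-fold higher, as were 12.2% of all genes. Hspb1 was unlisted in this RC4 library, where 4 reads correspond to 2.37 nRPM. The 3 experiments that measured RC4 in NIH3T3 cells therefore put Hspb1 at very different levels, with 827 nRPM by RNA-seq, 79.0 and 26.1 nRPM in the Ft and 4sU fractions, and no more than 2.37 nRPM in total RNA by 3′READS. These libraries carry different replicate numbers (3, 2 and 4), and the RNA-seq reads lie on coding sequence whereas the 3′READS reads lie at the PAS. The part of either difference was not tested. The 5 proliferation markers moved beside the members at RC4, since 5 of 5 were at least 2-fold lower in total RNA (median log2 -1.90), the 4sU fraction (-3.54) and the Ft fraction (-2.47) and 3 of 5 by RNA-seq (-1.23). Of the 5 fibroblast markers, 2 were at least 2-fold lower in total RNA (median -0.57), 2 in the 4sU fraction (-0.99), 1 in the Ft fraction (-0.51) and 1 by RNA-seq (-0.14), and none was at least 2-fold higher. The share of all genes at least 2-fold lower was 9.51% in total RNA, 14.5% in the 4sU fraction, 16.3% in the Ft fraction and 15.2% by RNA-seq. Of the 3 myotube markers tested by RNA-seq, 2 were at least 2-fold higher, while the only one tested in the Ft fraction was lower (log2 -1.63). The part of these shifts in the members' values was not tested.

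**Figure D2:**
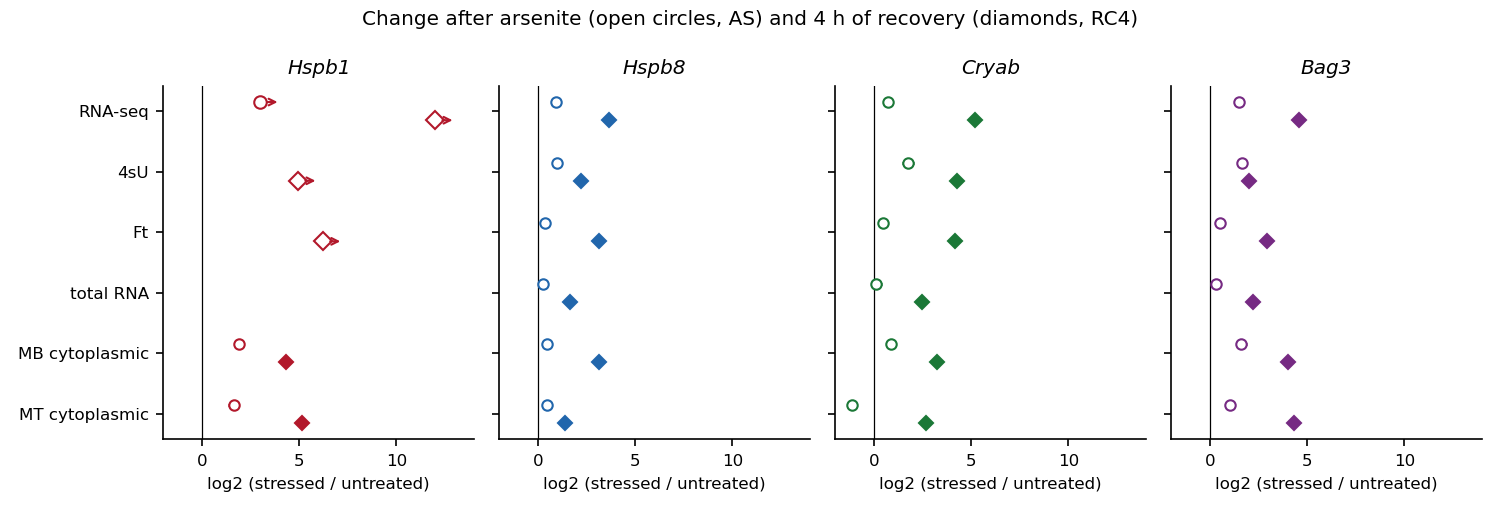
Log2 ratio of stressed over untreated levels after AS (open circles) and at RC4 (diamonds) in 6 kinds of RNA, with 95% counting intervals mostly hidden by the symbols and arrows on the lower bounds of Hspb1, where it was unlisted in the untreated library. RC4 lies to the right of AS in every row with both values, and Cryab after AS in MT cytoplasmic RNA (-1.15) is the only point to the left of zero.

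In the recovery series, the return to the level of NT replicate 4, the control of this series, took longest for Cryab. Its level in that library was 155 nRPM, against 54.4 and 38.7 nRPM in NT replicates 1 and 2. The RC24 level of 136 nRPM lay above both of the latter. Cryab was at 860, 531, 394 and 136 nRPM at RC4, RC8, RC12 and RC24. It was thus 3.43-fold above NT replicate 4 at RC8 (2.98 to 3.97) and 2.54-fold at RC12 (2.20 to 2.95), and at RC24 the ratio was 0.88 (0.71 to 1.08). Bag3 was at 734 nRPM at RC4 and at 163, 115 and 139 nRPM afterwards. Its ratio to NT was 1.03 at RC8 (0.87 to 1.23), 0.72 at RC12 (0.60 to 0.87) and 0.88 at RC24 (0.71 to 1.07). Hspb8 was at 580, 234, 150 and 132 nRPM, with ratios of 1.25 at RC8 (1.07 to 1.46), 0.80 at RC12 (0.68 to 0.94) and 0.71 at RC24 (0.58 to 0.86). By RC8 only Cryab of the 3 genes was at least 2-fold higher, against 6.24% of all genes at RC8 and 3.64% at RC12, and none was at RC24 (2.52%). The recovery samples were 1 library each.

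The ratio of Ft to 4sU RNA compares older with newly made RNA in the same cells. In NT cells Cryab had a log2 ratio of 1.04 (0.75 to 1.33) at 0 h and 1.12 (0.92 to 1.33) at 4 h, against a median of -0.11 and -0.17 over all genes. Bag3 (0.04 and 0.17) and Hspb8 (-0.06 and 0.18) were close to zero in both. After AS the ratios were -0.24 for Cryab (-0.44 to -0.03), -0.71 for Hspb8 (-0.88 to -0.55) and -1.09 for Bag3 (-1.27 to -0.91). The median of all genes was -0.07. Of the 3 genes, Bag3 alone was at least 2-fold lower in Ft than in 4sU RNA, as were 21.9% of all genes. At RC4 Hspb1 was at 1.60 (1.26 to 1.94), Hspb8 at 1.11, Bag3 at 1.09 and Cryab at 0.99, against a median of -0.28. Of the 4 genes, 3 were at least 2-fold higher in Ft than in 4sU RNA, as were 13.2% of all genes.

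**Figure D3:**
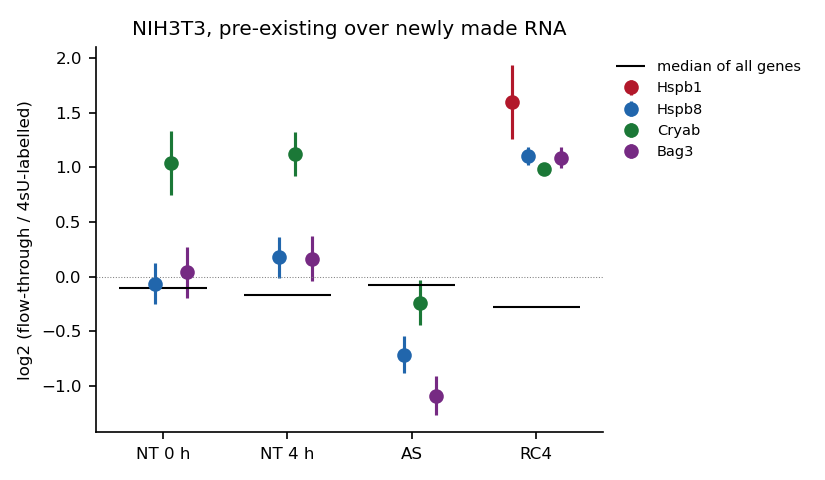
Log2 ratio of Ft over 4sU levels in NIH3T3 cells for each condition, not adjusted for uridine number, with 95% counting intervals and the median of all genes as a black line. Bag3 is at 0.04 in NT at 0 h, at -1.09 after AS and at 1.09 at RC4, and Hspb1 has a value at RC4 only.

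C2C12 cells expressed all 4 genes before stress, so that Hspb1 could be followed from a measured baseline. In MB cytoplasmic RNA Hspb1 went from 100.0 to 374 nRPM after AS (3.74-fold, 3.15 to 4.46) and from 93.3 nRPM in NT to 1863 nRPM at RC4 (20.0-fold, 16.9 to 23.7). In MT it went from 58.0 to 178 nRPM after AS (3.06-fold, 2.51 to 3.76) and from 58.8 to 2096 nRPM at RC4 (35.6-fold, 30.3 to 42.1). These were the largest RC4 ratios of the 4 genes in both cell states.

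Bag3 followed closely. In MB it went from 79.4 to 239 nRPM after AS (3.02-fold, 2.48 to 3.69) and from 81.4 to 1318 nRPM at RC4 (16.2-fold, 13.6 to 19.5). In MT it went from 108 to 218 nRPM after AS (2.03-fold, 1.74 to 2.37) and from 107 to 2155 nRPM at RC4 (20.1-fold, 17.8 to 22.8). Hspb8, its binding partner, was 1.34-fold higher after AS in MB (1.13 to 1.61) and 1.35-fold in MT (1.24 to 1.48). At RC4 Hspb8 was at 958 nRPM in MB and 922 nRPM in MT, which is 8.73-fold (7.46 to 10.3) and 2.64-fold (2.45 to 2.86) above NT, since the NT level was 110 nRPM in MB and 349 nRPM in MT.

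Cryab differed between the cell states after AS. In MB it went from 193 to 356 nRPM (1.85-fold, 1.62 to 2.11), whereas in MT it was lower, 247 nRPM against 548 nRPM in NT (0.45-fold, 0.41 to 0.49). The other MT control, taken at 4 h, was at 482 nRPM. The share of all genes at least 2-fold lower in this comparison was 5.13%. None of the 8 myotube markers was at least 2-fold lower in this MT library (median log2 -0.22), and of the 3 fibroblast markers tested 2 were at least 2-fold higher (median 1.90). The part of these markers in the Cryab value was not tested. At RC4 Cryab was higher in both, at 1923 nRPM against 207 nRPM in MB (9.27-fold, 8.27 to 10.4) and at 3054 nRPM against 482 nRPM in MT (6.34-fold, 5.97 to 6.74). Of the 4 genes, 2 were at least 2-fold higher after AS in MB (Hspb1 and Bag3, background 5.34%) and the same 2 in MT (background 5.48%), and at RC4 4 of 4 in MB (background 12.7%) and 4 of 4 in MT (background 8.37%). These were again single libraries, with no test.

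Hspb2, a muscle small heat shock protein gene, lies head to head with Cryab, their annotated starts 404 bp apart. It did not reach a 2-fold difference in the cytoplasmic RNA of either cell state. In MB it was at 66.5 nRPM in NT and 57.0 nRPM after AS, and at 75.0 nRPM in NT and 89.3 nRPM at RC4. In MT it was at 286 nRPM in NT and 370 nRPM after AS, and at 330 nRPM in NT and 281 nRPM at RC4. In NIH3T3 cells it was too low to be tested. By RNA-seq it had 7 reads in NT and 11 reads at RC4, and in total RNA 6 reads in both. In the 4sU fraction it had 15 reads at RC4 and was unlisted in NT (at least 4.12-fold), and in the Ft fraction it had 11 reads and was likewise unlisted in NT (at least 3.82-fold).

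**Figure D4:**
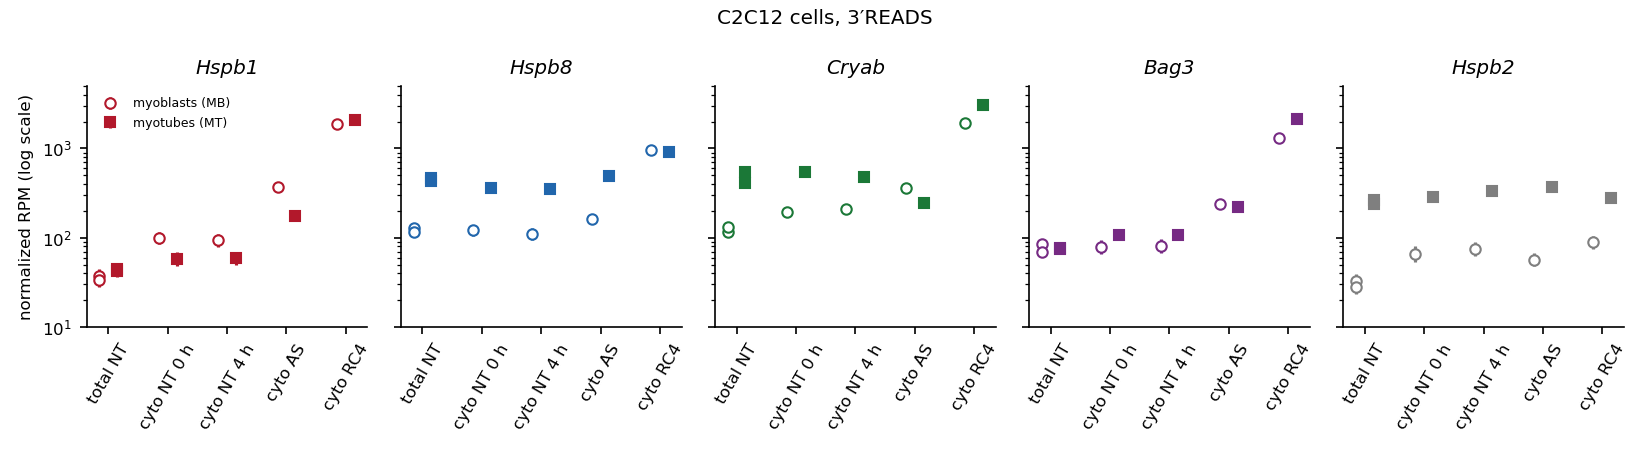
Normalized RPM (log scale) in C2C12 myoblasts (open circles) and myotubes (filled squares) for the 4 genes and for Hspb2, with 95% counting intervals. All 4 genes are highest at RC4 in both cell states, Cryab is lower in MT (247 nRPM) than in MB (356 nRPM) after AS only, and Hspb2 stays between 57.0 and 89.3 nRPM in MB and between 281 and 370 nRPM in MT cytoplasmic RNA.

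Without stress, Hspb8 and Cryab were higher in MT than in MB total RNA. Hspb8 was at 128 and 115 nRPM in MB and at 462 and 438 nRPM in MT total RNA, a 3.71-fold rise (log2 1.89 ± 0.10, adjusted p = 5.06e-12, edgeR over 10057 genes). Cryab was at 117 and 132 nRPM in MB and at 413 and 548 nRPM in MT (3.85-fold, log2 1.95 ± 0.12, adjusted p = 6.43e-11). For Hspb1 the log2 difference was 0.31 ± 0.15 (adjusted p = 0.0844). Bag3, at 84.1 and 68.5 nRPM in MB and 76.9 and 74.7 nRPM in MT, had a log2 difference of 0.00 ± 0.13 (adjusted p = 0.983). So 2 of the 4 genes were called higher, against a background of 35.3%, and the 8 myotube markers were all called higher beside them. The 3 fibroblast markers that could be tested were called higher too (median log2 2.95), and the 5 fibroblast markers summed to 805 to 943 nRPM in MB and 5415 to 6921 nRPM in MT. The 5 proliferation markers were called lower. The part of these shifts in the Hspb8 and Cryab values was not tested. In bulk RNA, fewer cells of a type and less RNA per cell cannot be told apart. In the cytoplasmic NT libraries the MT to MB ratio was 2.98 and 3.18 for Hspb8 and 2.84 and 2.32 for Cryab at 0 and 4 h, while that of Hspb1 was 0.58 and 0.63, on the other side of 1 from its total RNA.

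TIA1 is an RNA-binding protein of stress granules that prefers U-rich sequence, and the RIP to input ratio measures how much of a message comes down with it. In NT cells Hspb8 was at 76.8 and 82.2 nRPM in the TIA1 RIP and at 191 and 312 nRPM in the matching inputs, 3.08-fold lower (log2 -1.62 ± 0.31, adjusted p = 0.00629, edgeR with the lysate as a block, over 9161 genes). Cryab was at 19.1 and 14.3 nRPM against 35.7 and 26.6 nRPM (log2 -0.90 ± 0.45, adjusted p = 0.194). Bag3 was at 48.9 and 52.8 nRPM against 47.6 and 72.7 nRPM (log2 -0.22 ± 0.40, adjusted p = 0.754). Hspb8 alone of the 3 was called lower, against 8.56% of genes, and it was not called without the block (adjusted p = 0.0531) or without the lysate of NT replicate 2 (adjusted p = 0.0709).

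In AS cells Cryab was at 14.1 and 15.5 nRPM in the RIP and at 49.5 and 45.8 nRPM in the input, 3.22-fold lower (log2 -1.69 ± 0.45, adjusted p = 0.0309, edgeR). Hspb8 was at 152 and 125 nRPM against 276 and 306 nRPM, 2.11-fold lower (log2 -1.08 ± 0.30, adjusted p = 0.0361). Bag3 was at 110 and 46.8 nRPM against 116 and 132 nRPM, and its pair values differed widely (log2 -0.07 and -1.50, fitted -0.77 ± 0.40, adjusted p = 0.234). So 2 of the 3 genes were called lower, with a background of 8.18%. Neither call held without the block (adjusted p = 0.0926 for Cryab and 0.156 for Hspb8, edgeR), nor when the lysate of AS replicate 1 or 2 was left out (0.328 and 0.239 for Cryab, 0.245 and 0.392 for Hspb8). Hspb8 was also not called with library totals (adjusted p = 0.0692, edgeR). The difference between AS and NT was not called for any of them, with log2 differences of 0.55 ± 0.42 for Hspb8, -0.79 ± 0.63 for Cryab and -0.56 ± 0.57 for Bag3 (adjusted p = 1 each, edgeR). The background of that test was 0%, with 367 genes at an unadjusted p under 0.05 and 22 genes called by DESeq2. Hspb1 was unlisted in all 8 input and TIA1 libraries.

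**Figure D5:**
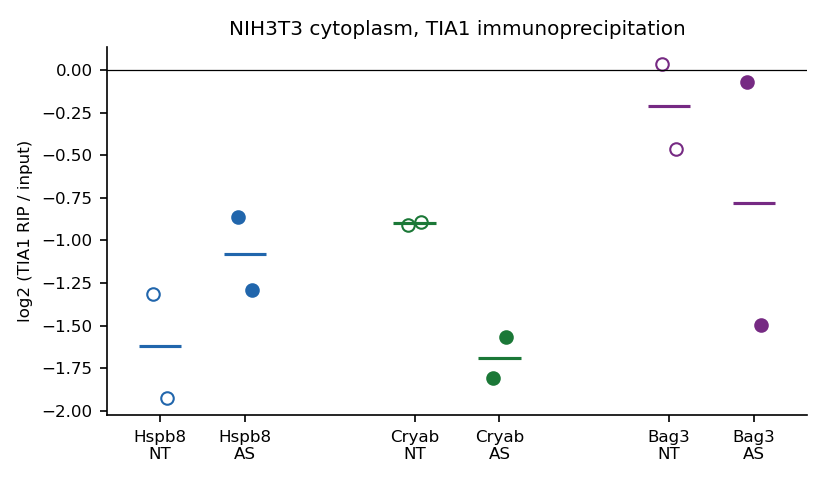
Log2 ratio of TIA1 RIP over input for each lysate (points) and its mean (lines) in NT (open) and AS (filled) NIH3T3 cells. The means are -1.62 in NT and -1.08 in AS for Hspb8, and -0.90 and -1.69 for Cryab. The 2 Bag3 lysates of AS lie far apart.

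The 3′UTRs of Hspb1 and Cryab, from the stop codon to the main PAS, were 135 and 144 nt long, shorter than those of about 90% of the 8302 genes with a TIA1 value (9.06% and 9.80% were shorter still). Those of Bag3 and Hspb8 were 588 and 840 nt, against a median of 740 nt. Overlapping UUUU runs numbered 3 in Hspb1, 5 in Cryab, 7 in Bag3 and 12 in Hspb8, with a median of 9 over the genes. Per 100 nt, Cryab had 3.47 and Hspb8 1.43 against a median of 1.24. By count, 35.5% of genes had fewer runs than Cryab and 55.6% fewer than Hspb8.

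The lists of related genes were described in the same way. Of the 8 other small heat shock protein genes, 2 to 4 were tested after stress in each comparison and none of those tested was at least 2-fold higher at RC4. The low Hspb2 counts of the 4sU and Ft fractions, given above, were below the minimum for this test. Hspb6, which is abundant in muscle, was lower in the 4sU fraction at RC4 (12.6 against 36.9 nRPM) and in MT cytoplasmic RNA after AS (21.0 against 63.1 nRPM). In MT against MB total RNA, 4 of 5 tested were called higher, among them Hspb2 (log2 3.08 ± 0.13, adjusted p = 8.95e-14, edgeR), and Hspb6 was called lower (log2 -1.26 ± 0.12, adjusted p = 2.59e-08, edgeR). Hspb7 was unlisted in MB and at 21.6 and 26.6 nRPM in MT total RNA. Of the 5 other BAG family genes, Bag2 was the only one at least 2-fold higher at RC4, by RNA-seq and in the Ft fraction. Bag4 (0.259-fold) and Bag5 (0.364-fold) were lower in MB at RC4, and Bag4 (0.375-fold) in MT, against 13.8% and 10.5% of all genes at least 2-fold lower.

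Among the partners and clients of BAG3-dependent autophagy, 7 of 11 genes tested were at least 2-fold higher at RC4 by RNA-seq (background 17.2%) and 1 was lower, with a median log2 change of 1.51 against 0.01 over all genes. Sqstm1, the autophagy receptor p62, rose 17.7-fold there, and Flnc, a filamin of muscle, 8.10-fold. In total RNA at RC4 it was 5 of 9 (median 1.38, background 12.2%), with Sqstm1 at 7.57-fold and Flnc at 3.92-fold. In MB and MT cytoplasmic RNA at RC4 it was 4 of 10 and 3 of 11 (background 12.7% and 8.37%), with Sqstm1 at 5.22-fold and 5.24-fold. Synpo2, a partner of BAG3 in muscle, was lower in MT (log2 -1.31). By RNA-seq at RC4 it was higher (log2 3.89, 2.70 to 5.38), though at a low level (4.49 against 0.302 nRPM).

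The 14 HSF1-driven chaperone genes, which share Hspa8 with the list above, were mostly higher at RC4 in each kind of RNA. There 14 of 14 were at least 2-fold higher by RNA-seq (median log2 3.41) and in the Ft fraction (median 3.29), 12 of 13 in the 4sU fraction (median 3.05), and 11 of 13 in total RNA (median 2.34), in MB (median 2.05) and in MT (median 2.53). The share of all genes at least 2-fold higher was 17.2% by RNA-seq, 14% in the Ft and 14.3% in the 4sU fraction, 12.2% in total RNA, 12.7% in MB and 8.37% in MT. Hspa1b, an inducible HSP70 gene that is nearly identical to Hspa1a and may share reads with it, was 56.5-fold higher in total RNA and 297-fold in MB. After AS the list reached a median of 1.58 in the 4sU fraction and 0.42 in the Ft fraction. In MT against MB total RNA 10 of 12 were called lower and 1 higher (median -0.97 against 0.11 over all genes, of which 26.7% were called lower), whereas Hspb8 and Cryab were called higher. Of the 3 heat shock factor genes, Hsf2 was at least 2-fold higher at RC4 by RNA-seq, in the 4sU and Ft fractions and in MT. Hsf1 was not, nor was Hsf4, which was tested by RNA-seq only.

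Across the 10 NIH3T3 total RNA libraries, the genes whose log2 levels followed each member most closely were compared among 7448 genes. For Bag3 they were Hsph1 (Pearson r = 0.93), Phlda1 (0.92) and Dnajb1 (0.91), where Hsph1 and Dnajb1 encode an HSP110 and an HSP40. For Cryab they were Rnf183 (0.98), Wdfy1 (0.98) and Khdrbs1 (0.97), and for Hspb8 they were Ino80c (0.96), Snx16 (0.95) and Lnx2 (0.95). Among the members, r was 0.63 for Hspb8 and Bag3, 0.52 for Cryab and Bag3 and -0.12 for Hspb8 and Cryab. These values describe 10 libraries that share replicate numbers and a recovery series, and Hspb1 was too low to enter.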

How the data were processed

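For 3′READS, the authors used Cutadapt and bowtie2 (genome mm9), kept PAS reads with untemplated Ts and deposited raw counts per PAS. For RNA-seq they used STAR and deposited raw counts on coding sequences. A feature is listed in a library only from 5 reads up. PASs were assigned to GENCODE M1 genes on NCBIM37 (the build called mm9), with 1080 ambiguous positions left out, and 85.0 to 94.5% of reads fell in genes. Counts were scaled by median-ratio factors over the 38 3′READS libraries, and separately over the 4 RNA-seq libraries.

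Replicated groups were compared with edgeR 4.0.16 (quasi-likelihood test, R 4.3.3) on genes with a mean of at least 10 reads per library, with Benjamini-Hochberg adjustment over all of them, and DESeq2 1.42.0 was an alternative. The fits were tested on simulated data. Groups with 1 library got ratios with exact 95% counting intervals (SciPy 1.17.1) and no test, and called meant at least 2-fold at a mean of at least 10 reads. The NT library with the same time label was the control, and NT replicate 4 in the recovery series. Unlisted genes were set to 4 reads for lower bounds, which in 3′READS assumes that unlisted reads lay at 1 PAS.

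Replicate numbers paired NT and AS total RNA, since deviations from the group means of same-numbered libraries correlated at r = 0.88, 0.87 and 0.83. In the RIP, input and TIA1 libraries of 1 number come from 1 lysate. The paper speaks of biological replicates for total RNA, the TIA1 RIP and MB against MT. It does not say whether each was a separate culture, so p-values measure the spread between these libraries.

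The members and gene lists were chosen with earlier results of these data known. The text names the members, Hspb2 and Hspb7, up to 4 genes per list and comparison with the largest change past the threshold, and the 3 genes most like each member. Samples were grouped by their labels, and alternatives changed 1 choice at a time. The fits that leave out a whole replicate pair with the block were chosen after seeing the data.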

Additional observations from a re-analysis of the deposited data

Results flagged for a closer look

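Cryab moved in opposite directions after AS in the 2 states of C2C12 cells, with a log2 ratio to NT of 0.88 (95% counting interval 0.69 to 1.08) in MB and -1.15 (-1.29 to -1.02) in MT cytoplasmic RNA. Each value rests on 1 library per condition, so the difference was not tested. Against the other MT control, taken at 4 h, the NT level was 482 nRPM and the AS level of 247 nRPM was still lower. No group had the 4 samples needed to look for single samples far from the rest.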

How the results depend on the processing

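With a mean of at least 50 reads, fewer genes were compared and fewer passed 2-fold: 322 of RNA-seq AS (678 at 10 reads), 728, 270, 123 and 40 of total RNA RC4, RC8, RC12 and RC24 (1761, 901, 568 and 407), 570 and 1859 of 4sU AS and RC4 (1262 and 2979), 235 and 1533 of Ft AS and RC4 (887 and 2862), 170 and 763 of MB AS and RC4 (685 and 2018), and 346 and 709 of MT AS and RC4 (962 and 1703). Library totals alone turned the split of higher to lower genes from 1922 to 1693 into 800 to 4582 in RNA-seq RC4, from 990 to 771 into 689 to 1225 in total RNA RC4, from 581 to 681 into 432 to 943 in 4sU AS, from 1481 to 1498 into 1017 to 2271 in 4sU RC4, from 1324 to 1538 into 835 to 2572 in Ft RC4, from 967 to 1051 into 580 to 1720 in MB RC4, from 3550 to 2687 into 2726 to 3583 in MT against MB and from 800 to 749 into 1047 to 590 in the TIA1 RIP of AS. TMM turned 441 to 244 into 581 to 176 in MB AS, and DESeq2 turned 954 to 784 into 941 to 1163 in the TIA1 RIP of NT.

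The replicate block raised the calls from 0 to 11 in total RNA AS and from 0 to 69 in input AS, where the pairs shared only a number (r = 0.60) and no member was called. With the block, leaving out replicate pair 1, 2 or 4, an alternative chosen after seeing the data, gave 14, 0 and 101 calls in total RNA AS. Input AS had 4 calls with no filter and 25 with DESeq2. Without the block, 322 genes passed in the TIA1 RIP of NT and 70 in that of AS (1738 and 1549 with it). Leaving out a lysate gave 754 to 1397 and 0 to 2026 calls, and 0 to 8 for AS minus NT, which had 10 with no filter and 22 with DESeq2. PAS isoform changes (96 genes) fell to 4 when pair 4 was required too and were 507 to 611 in single pairs. The cause of these shifts was not tested.

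Of 323 alternative values of the members, 285 kept their direction and side of the threshold or moved within the counting interval, 22 moved beyond it, 9 lost and 1 gained a call, and 6 changed sign, all 6 among differences that were not called and when 1 library or lysate was left out. There the log2 range was -0.16 to 0.80 for Hspb8 in total RNA AS, -0.10 to 0.61 for Hspb8 in input AS, -0.15 to 0.15 for Bag3 in MT against MB, -0.46 to 0.037 for Bag3 in the TIA1 RIP of NT and -1.28 to 0.15 for Bag3 in AS minus NT. The lower bounds of Hspb1 have no counting interval, and their alternatives were counted among the 285 whatever the size of the move. The main PASs of Cryab and Bag3 lie 3 and 4 nt past the annotated gene end, so counting within the gene span alone left them too few reads for a value. Single libraries limit most stress comparisons to counting error.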
